A study of Mus musculus with 4 samples.

Results

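The regions described here are OTX2 binding regions listed for both primitive streak (PS) and definitive endoderm (DE) that lie inside protein-coding genes. By its name the list holds regions found only in PS and DE, so regions also listed for the epiblast (EPI) are left out. Members were chosen from this list by position, with earlier results of these data known. The midpoint had to fall within the span of a RefSeq protein-coding gene (mm10). It also had to lie more than 1 kb from either end of every protein-coding gene. This gave 2614 of the 6157 PS and DE regions, out of 39615 regions in the 4 lists of the series. The lists are PS and DE, DE only, PS only, and EPI and PS. No list of EPI alone, of EPI and DE, or of all stages is among them. OTX2 was mapped by CUT&RUN, in which an antibody directs a nuclease to a chromatin protein and the released fragments are sequenced. EpiSCs, pluripotent cells of the epiblast stage, were kept in N2B27 with FGF2 (12.5 ng/ml), NVP (175 nM) and Activin A (20 ng/ml). PS cells were made from them in CDM with CHIR (3 uM) and Activin A (40 ng/ml) over 16 h, and DE cells by 24 h more with LDN (100 nM) and Activin A (100 ng/ml). The libraries are from PS cells of BL6/129 hybrid lines named OTX2-dTAG-EGFP, with 500000 cells per sample. There are 3 anti-HA libraries, 1 each from the lines 7H, 7H1 and 7H2, and 1 control IgG library from line 7H2. Every line therefore carries the tagged OTX2, and no untagged line is among the samples. Libraries of EpiSC and DE cells were not analysed here. The region lists hold coordinates alone. Depth and the spread between replicates are therefore unknown, and every p-value below counts regions, which are not replicates.

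OTX2 is a homeodomain transcription factor of the bicoid type, whose DNA-binding domain prefers a short core written TAATCC. It acts in the epiblast, in the anterior streak and its endoderm, and in the forebrain. Transcription factors often bind distal elements, and many such elements sit in the introns of a gene, which may or may not be the gene they act on. The gene spans used here do not separate exons from introns.

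Sequence could be read for the few members that reach one of the 32851 RefSeq promoter windows (GRCm38.p6), because a gene can hold further transcription starts well inside its span. Of the 2614 members, 64 (2.45%) covered bases among the 250 before such an inner start, 48 at another start of the host gene and 16 at the start of a non-coding gene. The stretches had a median length of 84.5 bases and 5470 bases in all. TAATCC, searched on both strands, was present in 6 of the 64 (9.38%, 95% Wilson interval 4.37 to 18.98). Over the same stretches of all promoter windows the mean share was 2.07%. In DE only regions inside genes it was 29 of 393 stretches (7.38%, interval 5.19 to 10.4), against 2.56% of all windows over those stretches. A G-rich pattern taken as a control, GGGGNGGGG, was also above its share over all windows, in 11 of 64 (17.2%) against 8.47%. The difference between members and all windows is thus not limited to TAATCC.

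The 6 stretches with TAATCC are printed because they hold the OTX2 core among the stretches that could be read. Bases of members outside the promoter windows were not read and may hold it too. Each stretch is given 5′ to 3′ on the strand of the start it precedes. Capitals mark TAATCC or its reverse complement GGATTA. The first lies in the Igf2r span before the start of Airn, a non-coding RNA that silences Igf2r on the paternal chromosome, and the others lie before inner starts of their host genes. Syne3 encodes a nesprin that ties the nucleus to the cytoskeleton, Cntnap2 a neurexin-family adhesion protein, and Zfp385a a zinc finger protein. In order, the stretches lie at chr17:12741259-12741310 (plus strand), chr12:104998678-104998881 (minus), chr6:47244287-47244395 (plus), chr10:18407580-18407674 (plus), chr15:103334384-103334477 (minus) and chr7:46639837-46639920 (minus).
Airn: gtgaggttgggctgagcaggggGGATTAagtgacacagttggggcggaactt
Syne3: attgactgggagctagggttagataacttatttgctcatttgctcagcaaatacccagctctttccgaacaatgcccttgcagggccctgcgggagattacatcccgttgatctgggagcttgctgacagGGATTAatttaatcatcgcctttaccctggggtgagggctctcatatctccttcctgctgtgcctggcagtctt
Cntnap2: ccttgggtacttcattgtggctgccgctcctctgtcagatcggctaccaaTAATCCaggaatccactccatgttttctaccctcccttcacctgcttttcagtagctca
Nhsl1: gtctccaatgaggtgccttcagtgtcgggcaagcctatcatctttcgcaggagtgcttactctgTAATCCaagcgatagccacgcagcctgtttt
Zfp385a: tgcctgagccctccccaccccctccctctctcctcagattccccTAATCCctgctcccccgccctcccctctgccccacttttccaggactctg
Sergef: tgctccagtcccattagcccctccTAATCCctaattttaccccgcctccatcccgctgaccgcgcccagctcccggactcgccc

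Each of these 6 stretches held the core 1 time. For contrast, a pair of members at inner starts lacked it. Kdm6a, which encodes a histone H3 lysine demethylase, has its stretch at chrX:18162392-18162497 (plus strand), and Prickle2, a planar cell polarity gene, at chr6:92481403-92481495 (minus strand).
Kdm6a: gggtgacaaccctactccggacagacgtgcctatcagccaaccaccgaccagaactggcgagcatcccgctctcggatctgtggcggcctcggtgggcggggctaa
Prickle2: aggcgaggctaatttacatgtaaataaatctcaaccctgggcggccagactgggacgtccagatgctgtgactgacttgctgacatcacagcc

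Among the 64 stretches, the GATA core AGATAA was found in 5 (7.81%, interval 3.38 to 17.0), against 3.34% of all windows over the same stretches. The AP-1 site TGACTCA was in 3 (4.69%, interval 1.61 to 12.9), against 1.54%. Both intervals start just above the share of all windows. They rest on counts of 5 and 3, and no test was run on them. In the DE only stretches these motifs were slightly below that share, with AGATAA in 3.82% against 4.08% and TGACTCA in 1.53% against 1.93%. The homeodomain core TAATTA, the FOX core TGTTTAC, the SOX core ACAATGG, the T-box site TCACACCT, the TCF/LEF core CTTTGAT and the OCT site ATGCAAAT were in 0 of 64, which allows a share of up to 4.69% each (3 counts of 64). Their shares over all windows, from 0.365% for TCACACCT to 1.61% for TAATTA, lie under that limit, so a lower share in members was not detectable. The searched patterns do not contain one another, and a match is a description of letters, not a binding site.

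The members fell in 1745 genes, 7.97% of the 21887 protein-coding genes. DE only regions lay inside 25.5% of all genes and PS only regions inside 2.63%. One member was found in 1237 of the host genes and 2 or more in 508, and these 508 genes held 52.7% of the members. A gene's length sets how many regions it can hold: 0.580% of genes up to 10 kb had a member, 4.11% at 10 to 30 kb, 10.99% at 30 to 100 kb, 31.1% at 100 to 300 kb and 52.6% over 300 kb. Each gene group below is therefore set beside all protein-coding genes weighted to the same 5 length classes. These are counts with no test. The classes are coarse: the 7926 genes up to 10 kb had 18.5 Mb of interior in all. A gene too short to reach beyond 1 kb from both its ends cannot hold a member but still counts in its class. The share set beside lists of short genes, such as definitive endoderm (median 6.95 kb), may therefore be too low.

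Among transcription factors of endoderm, 3 genes held 1 member each. The region in Sox17, an SRY-box factor required for definitive endoderm, spanned chr1:4493551-4493640, 2.67 kb from the nearer gene end. That in Hhex, a homeobox gene of the anterior endoderm, spanned chr19:37437752-37437891, 2.98 kb from the start of a gene 5.89 kb long. That in Gata4, a zinc finger factor of endoderm and heart, spanned chr14:63239551-63239615, in a longer gene of 72.8 kb. With Cdh1, the epithelial cadherin, which held 2 members, 4 of the 18 definitive endoderm genes had a member (22.2%, against 2.71% of all genes of the same length classes). Foxa2, Eomes, Cxcr4 and Gsc were among the genes with none inside. The regions in Sox17 and Gata4 were 90 and 65 bp wide, and with regions of at least 100 bp the list had 2 genes. Sox17 held no DE only region inside, Hhex held 1, Cdh1 3 and Gata4 4.

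The anterior endoderm and foregut list had 3 of 18 genes with a member (16.7%, against 3.10%). Sfrp1, a secreted WNT antagonist, held 3 members in a gene of 38.2 kb, at chr8:23412978-23413123, chr8:23435670-23435861 and chr8:23443467-23443657, beside 1 DE only region. Hesx1, a homeobox repressor of the anterior neural plate and foregut, held 1 at chr14:27000451-27000636, 1.79 kb from its end, and Hhex is also on this list. Of the 20 primitive streak genes 1 had members (5%, against 1.80%), Wnt3, a ligand required for streak formation. Its 2 regions lay 30.7 and 40.8 kb from the start, at chr11:103804776-103804883 and chr11:103814874-103815098.

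WNT pathway genes had a member in 13 of 44 cases (29.5%, against 14.2% of all genes of the same length classes), with 26 members in all. Of ligands, Wnt3 held 2 and Wnt11 1. Of receptors and co-receptors, Ror1, a receptor tyrosine kinase for WNT5A, held 6, and Ror2 and Lrp6 1 each. The 6 regions of Ror1 spread over the gene, from 16.5 to 327 kb from its start, and it also held 11 DE only regions. Of intracellular parts, Prickle1, a planar polarity protein, held 5, and Gsk3b, a kinase of the destruction complex, and Daam1, a formin, held 1 each. The nuclear effectors Lef1, Tcf7l1 and Tcf7l2 held 1 each. Of antagonists, Sfrp1 held 3 and Znrf3, a ubiquitin ligase that removes Frizzled receptors, 2. No Frizzled gene on the list had a member.

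Prickle1 held 5 members against 1 DE only region, while over all genes there were 5.01 DE only regions inside genes per member. Its members formed 2 pairs and 1 single region: 1.76 and 2.11 kb from the start, 82.0 and 82.2 kb from it, and 56.7 kb from it. In the second pair 1 region was 45 bp wide. With regions within 500 bp merged, each pair becomes 1 region, so the count of 5 takes close neighbours separately. The PS only list added 2 regions and the EPI and PS list 1, so Prickle1 held regions of all 4 lists. This gene was picked out after its values were seen.

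BMP pathway genes had a member in 6 of 27 cases (22.2%, against 12.7%), with 10 members. Bmp7, a ligand, held 4, all within 5.18 kb of the same gene end: chr2:172935045-172935231, chr2:172937497-172937577, chr2:172937981-172938065 and chr2:172938534-172938844. The last 3 lay within 1.15 kb of each other, measured between midpoints, and merging regions within 500 bp joins them into 1. Smad1, a transducer of BMP signals, held 2, at 14.3 and 16.3 kb from its start. The type I receptor Acvrl1, the inhibitory Smad6 and Smad7 and the extracellular regulator Bmper held 1 each. In the NODAL and activin list, 1 of 21 genes had a member (4.76%, against 7.96%), Smad2, which carries activin and NODAL signals to the nucleus. The ligand gene Nodal and its antagonists Lefty1, Lefty2 and Cer1 had none inside.

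In the FGF and MAPK list, 5 of 27 genes had a member (18.5%, against 11.9%). Fgf10, a ligand, held 2, and the receptor gene Fgfr2, the adaptor gene Frs2 and the inhibitor gene Spred2 held 1 each. Sos1, a RAS exchange factor, held 2 that were only 10 and 15 bp wide and lay at chr17:80468574-80468583 and chr17:80468703-80468717. The call for Sos1 rests on those slivers, and with regions of at least 100 bp the list had 1 gene.

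Axon guidance genes, which are long, had a member in 16 of 39 cases (41.0%, against 30.8% of all genes of the same length classes) and 52 members. Ephrins and their receptors were represented by Efna5 with 6, Ephb2 with 5, Ephb1 with 3 and Epha4 with 1. Among semaphorins and plexins, Sema3a held 5, Sema6d, Plxna2 and Plxna4 4 each, Sema6a 3 and Sema5a 1. Of the Slit and Robo genes, Slit1 and Slit3 held 4 each, Robo1 3 and Robo3 1. Netrin-1 (Ntn1) and its receptor gene Unc5b held 2 each. The 5 members of Ephb2 all lay nearer its start than its end, 6.28 to 85.4 kb from the start in a gene of 189 kb. Of its 5 DE only regions, 1 lay among them at 59.3 kb and 4 lay farther in, from 117 to 136 kb. The adhesion list had 14 of 33 genes with a member (42.4%, against 29.4%). Cdh2, the neural cadherin, and Cdh4, the retinal cadherin, held 6 each, and Pcdh7, a protocadherin, and Magi1, a junction scaffold, held 4 each, 1 of those in Magi1 being 5 bp wide.

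Epiblast and pluripotency genes had a member in 6 of 22 cases (27.3%, against 8.04%). By the list name, these members are regions not listed for EPI. Esrrb, an orphan nuclear receptor of naive pluripotency, held 4, from 34.4 to 132 kb into a gene of 161 kb. Dnmt3a, a DNA methyltransferase, and Tead1, a partner of YAP, held 2 each. Pou5f1, the gene of OCT4, held 1 at chr17:35507228-35507466, 1.31 kb from its start and 239 bp wide, and Zic2 and Sall4 held 1 each. Chromatin regulators had a member in 14 of 36 cases (38.9%, against 21.9%), with 4 in Tle4, a Groucho-type corepressor, 3 in Arid1b, a subunit of SWI/SNF remodellers, and 2 each in Tle3, Jarid2, Hdac9 and Dnmt3a.

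The remaining groups held few. Of the 20 neurectoderm genes 2 had a member (10%, against 5.38%), Pax3 and Zic2. Of the 20 extraembryonic endoderm genes 2 did (10%, against 12.6%), Gata4 and Cubn, and with regions of at least 100 bp 0 did. No mesoderm gene of 21 and no housekeeping gene of 20 did, where all genes of those length classes gave 2.08% and 2.68%, so these 0 counts do not set the groups apart. Of the 24 lymphocyte genes 1 did (4.17%, against 7.20%): Cd8a, with 2 members. With a margin of 2.5 kb around gene ends the lymphocyte list had 0 genes and the neurectoderm list 1. That margin also left 4 genes in the epiblast and pluripotency list, 2 in the anterior endoderm and foregut list and 12 among chromatin regulators. Counts of the other lists did not change.

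**Figure D1:**
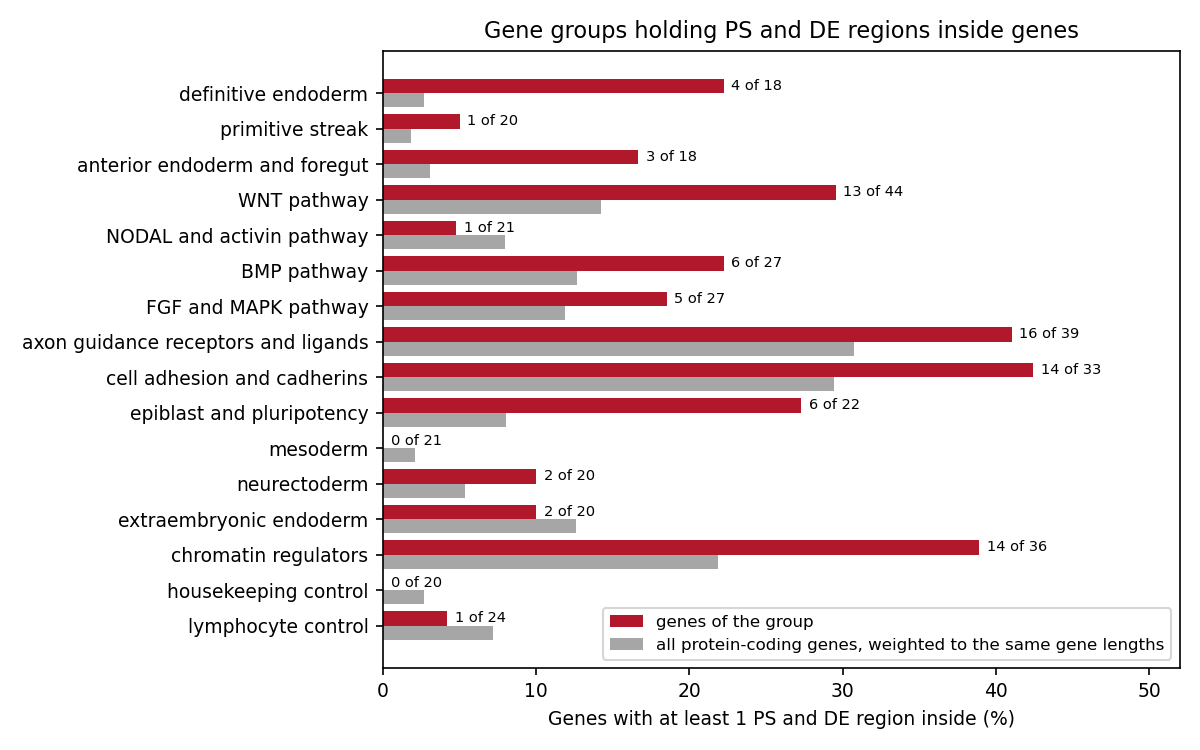
Share of genes with at least 1 PS and DE region inside (x axis, percent) for 16 gene lists (red, with counts), beside all protein-coding genes weighted to the same 5 length classes (grey). Red exceeds grey for 11 lists, by the most percentage points for the definitive endoderm and the epiblast lists (22.2% against 2.71% and 27.3% against 8.04%); the NODAL and activin, mesoderm, extraembryonic, housekeeping and lymphocyte lists lie below. The classes are coarse, so the grey share may be too low for lists of short genes such as definitive endoderm (median 6.95 kb). No test was run.

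The genes with the most members were Asic2, an acid-sensing ion channel gene, and Auts2, a neurodevelopmental gene that acts with a Polycomb complex, with 11 each. Both are over 1 Mb long, 1088 and 1106 kb. Asic2 also held 21 DE only, 3 PS only and 1 EPI and PS region, and Auts2 42 DE only and 2 PS only. The members of Asic2 were spread from 41.8 to 1079 kb from the start. Next came Aff1, a transcription elongation scaffold, Foxn3, a forkhead repressor, and Gse1, with 7 each. Ndst1, a heparan sulfate modifying enzyme, Pax7, a paired-box factor, Cdh2, Lypd6b, Atp8a1, Greb1l and Efna5 held 6 each, as did Cdh4, Ror1, Nrxn3, Spock1, Shroom3 and Ntm. Gse1 held 27 DE only regions and Aff1 20, but Lypd6b held 2 and Ndst1 3.

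Among host genes with at least 3 members, density was highest in 2 genes under 30 kb. Per 100 kb of span beyond 1 kb from each end, Cd59a, a complement inhibitor gene, had 17.0 and Asic4 13.7, each from 3 members. Ndst1 followed with 9.59 from 6 members, then Adora1, an adenosine receptor gene, with 8.76 and Sfrp1 with 8.28. All 6 members of Ndst1 lay between 2.06 and 25.3 kb from one gene end. Of the 196 host genes with 3 or more members, 42 held more members than DE only regions and 3 held no DE only region inside.

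**Figure D2:**
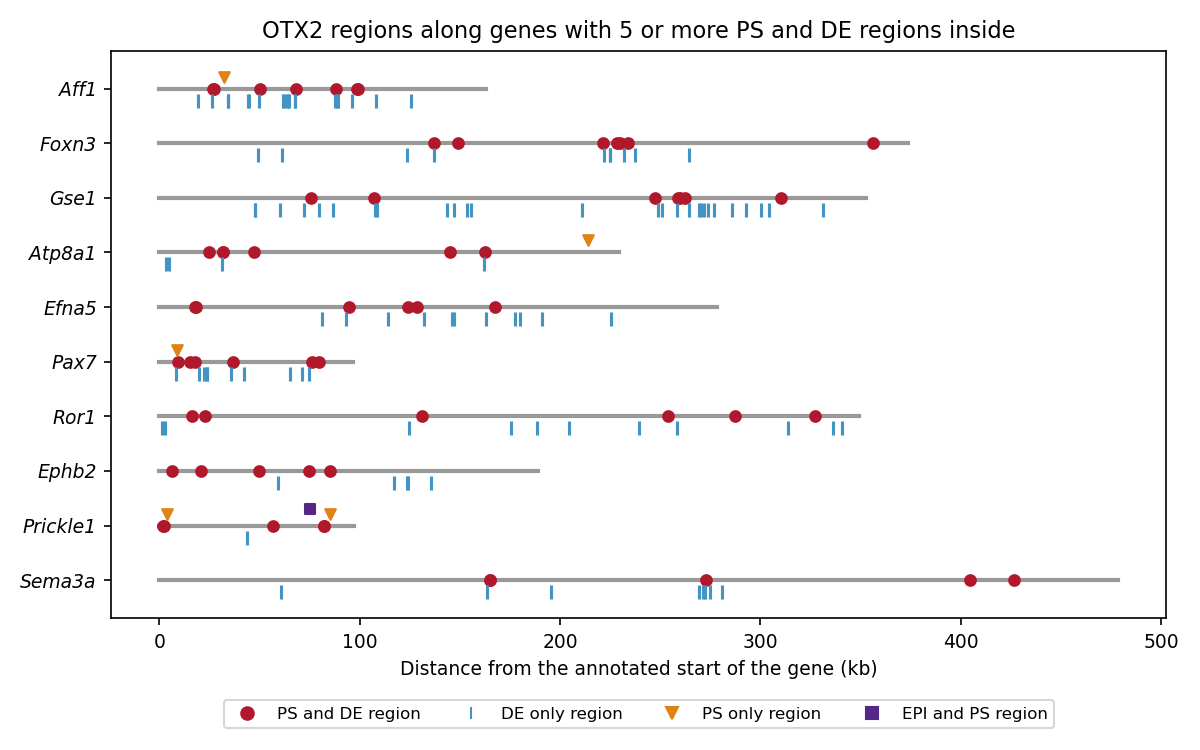
Regions along the 10 genes named in the text that have 5 or more PS and DE regions inside, a known strand and a length under 500 kb (x axis, distance from the annotated start in kb; grey lines, gene spans). Red circles are PS and DE, blue ticks DE only, orange triangles PS only and purple squares EPI and PS regions; overlapping circles hide pairs such as the 2 members of Efna5 at 18.02 and 18.3 kb. Prickle1 has 1 blue tick and Gse1 27.

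Some neighbouring members within a gene were close, a measure not taken for the other lists. Of 869 pairs of neighbours in one gene, 96 (11.05%) had midpoints within 1 kb, 220 (25.3%) within 5 kb and 293 (33.7%) within 10 kb, and the median was 25.4 kb. Whether close members are pieces of 1 wider region was not tested. Merging regions of the list within 500 bp left 2540 members in 1745 genes. The tightest run of 3 lay in Fggy, which encodes a carbohydrate kinase, with 0.710 kb between the first and the third midpoint (chr4:95860445-95861275), followed by Sash1 (1.02 kb), Eya2, a phosphatase and transcriptional coactivator gene (1.10 kb), Bmp7 (1.15 kb) and Clvs1 (1.66 kb). Each of these 5 genes held 4 members before merging. Merging within 500 bp turns the runs of Fggy, Sash1 and Bmp7 into 1 region each, and joins those of Eya2 and Clvs1 only in part. The member of Clvs1 outside its run lay over 100 kb away from it, and those of the other 4 genes lay within 5 kb of theirs.

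Among host genes, 74.8% also held a DE only region inside, where all genes weighted to the same length classes gave 56.8%. A PS only region was found in 14.0% of host genes, where the weighted share was 7.99%. In 402 host genes no region of the other lists lay inside, with regions within 1 kb of a gene end not counted. Per Mb of gene interior, members numbered 2.81 in genes up to 10 kb, 2.84 at 10 to 30 kb, 2.61 at 30 to 100 kb, 3.18 at 100 to 300 kb and 2.10 over 300 kb. DE only regions had 16.7 per Mb in genes up to 10 kb and 10.4 over 300 kb, and PS only regions had 0.460 per Mb over 300 kb against 0.801 at 100 to 300 kb. Genes over 100 kb held 60.6% of the members.

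**Figure D3:**
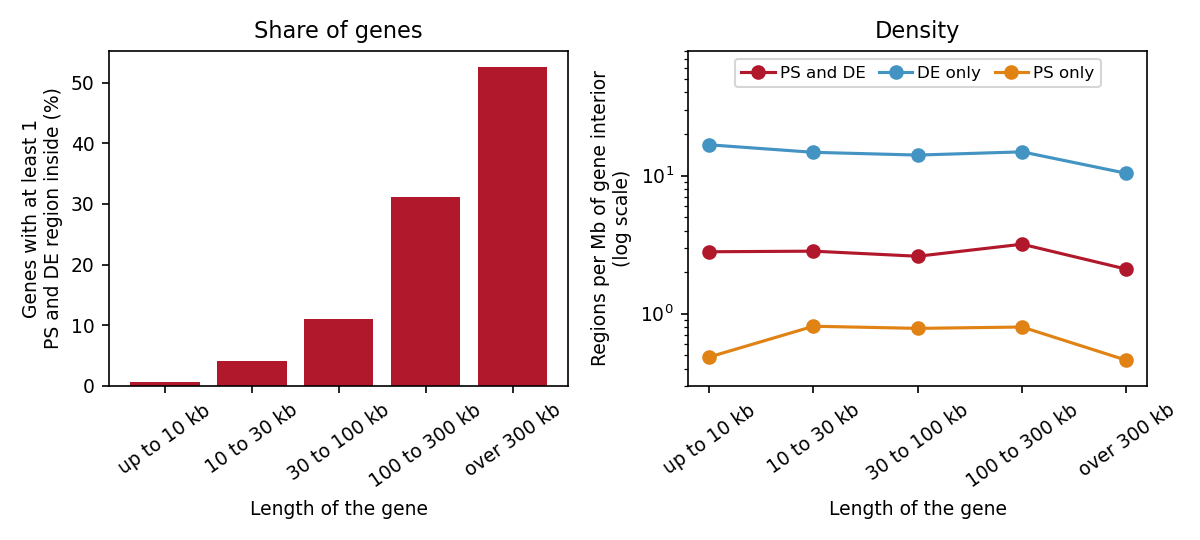
Left, share of protein-coding genes with at least 1 PS and DE region inside (y axis, percent) by gene length; right, regions per Mb of gene interior (y axis, log scale) for the PS and DE, DE only and PS only lists. The share rises from 0.580% to 52.6% with length, while the density of PS and DE regions stays between 2.10 and 3.18 per Mb.

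By chromosome, members numbered 2.14 (chromosome 3) to 3.58 (chromosome 19) per Mb of gene interior on the autosomes and 0.594 on the X chromosome, where 26 members lay. DE only regions inside genes were also sparser on X, with 5.12 per Mb against 11.7 to 17.4 on autosomes. No member lay on the Y chromosome.

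The share of regions inside genes was close between lists. It was 42.5% of PS and DE regions (95% Wilson interval 41.2 to 43.7), 41.6% of DE only (41.1 to 42.2), 41.4% of PS only (39.0 to 43.8) and 37.2% of EPI and PS regions (32.5 to 42.2). None of the 3 comparisons with PS and DE passed 0.05 over the 12 Fisher's exact tests (two-sided, Benjamini-Hochberg adjusted): the adjusted p was 0.314 for DE only, 0.512 for PS only and 0.114 for EPI and PS. With a margin of 2.5 kb the comparison with EPI and PS passed, at 1.19 times and an adjusted Fisher's exact p of 0.0349.

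Position along the host gene was also close to that of the other lists. Strand was known for the hosts of 2022 members, of which 52.4% (50.2 to 54.5) lay nearer the start than the end. For DE only regions inside genes it was 54.4% of 10153 (adjusted Fisher's exact p = 0.177) and for PS only 52.1% of 522 (adjusted Fisher's exact p = 0.922). Within 10 kb of the start lay 18.6% of these members and within 10 kb of the end 11.7%. Either end of the host gene was within 10 kb for 27.4% of all members, 28.7% of DE only regions (adjusted Fisher's exact p = 0.288) and 28.8% of PS only regions inside genes (adjusted Fisher's exact p = 0.512). The median length of the host gene, counted per region, was 133 kb for members, 128 kb for DE only and 113 kb for PS only. At the 1 kb margin, the nearest member lay 1004 bp from an end of Slco4c1, and the nearest region left out lay 995 bp from an end of Triml2.

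Members lay nearer to DE only regions than PS only regions inside genes did. A DE only region had its midpoint within 10 kb of 1242 members (47.5%, interval 45.6 to 49.4) and of 228 of 676 PS only regions inside genes (33.7%, 30.3 to 37.4). The first share was 1.41 times the second (adjusted Fisher's exact p = 1.40e-09). Members are listed for DE and PS only regions are not, so the comparison is tied to how the lists are defined. How far that bears on the difference was not tested. PS and DE regions outside gene interiors had 45.4% (adjusted Fisher's exact p = 0.177). Within 50 kb the shares were 86.3% of members, 83.3% of PS only inside genes and 81.9% of the other PS and DE regions. At that distance the comparison with PS only no longer passed (adjusted Fisher's exact p = 0.112) and that with the other PS and DE regions did (adjusted Fisher's exact p = 3.20e-05). A PS only region lay within 10 kb of 4.71% of members and an EPI and PS region within 10 kb of 0.880%, from lists that are far shorter.

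**Figure D4:**
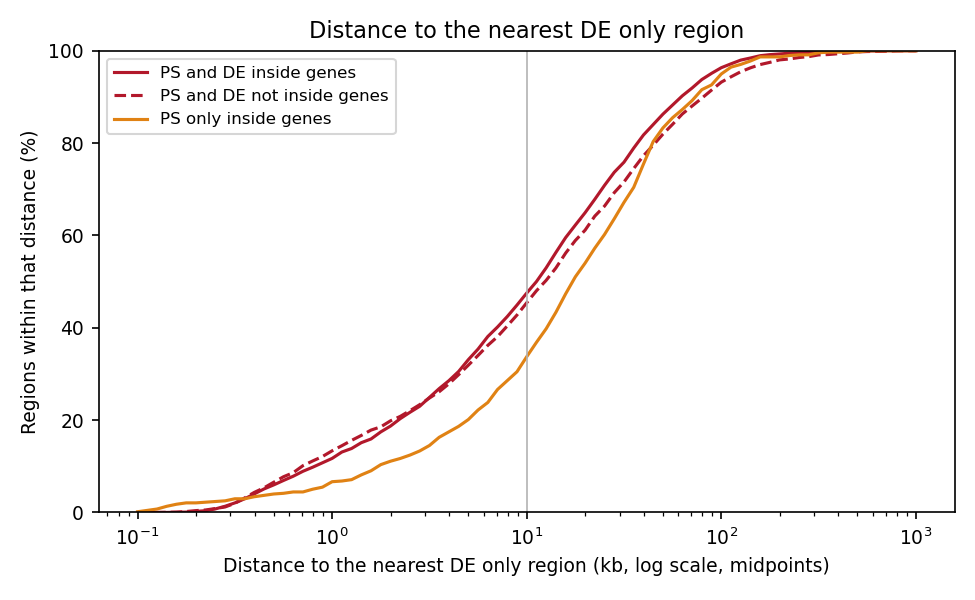
Share of regions (y axis, percent) with a DE only region within a given distance between midpoints (x axis, kb, log scale) for PS and DE regions inside genes (red line), the other PS and DE regions (dashed) and PS only regions inside genes (orange). At 10 kb (grey line) the values are 47.5%, 45.4% and 33.7%, and at 50 kb they are 86.3%, 81.9% and 83.3%.

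Members were slightly wider than regions of the other lists inside genes. The median width was 123 bp (quartiles 92 and 177), against 118 bp for DE only and 116 bp for PS only inside genes and 122 bp for the other PS and DE regions. At least 200 bp wide were 18.6% of members (17.1 to 20.1). Inside genes, DE only regions reached that width in 16.0% of cases (adjusted Fisher's exact p = 0.00723) and PS only regions in 10.4% (adjusted Fisher's exact p = 8.34e-07). The share was 16.2% of the other PS and DE regions (adjusted Fisher's exact p = 0.0457). Only the difference from PS only regions kept passing when regions of one list within 500 bp were merged, when regions under 100 bp were left out, and at widths of 150 or 300 bp. Regions under 50 bp numbered 59 among members (2.257%) and 0 among DE only and PS only regions inside genes, whose smallest widths were 62 and 77 bp. How the bounds of shared regions were set is not given in the sources used here, so their widths may be widths of overlap, and its part in the width comparisons was not tested.

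The widest member, 797 bp, lay in Tenm4, a teneurin adhesion gene, at chr7:96440291-96441087, 269 kb from its start. The next were in Hkdc1, a hexokinase-domain gene (756 bp, chr10:62413173-62413928), Cachd1 (625 bp, chr4:100828341-100828965), Dock9, a guanine nucleotide exchange factor gene (599 bp, chr14:121779842-121780440), and Kcnmb2, a potassium channel subunit gene (578 bp, chr3:32131415-32131992). Dock9 held a second wide member of 552 bp at chr14:121713264-121713815.

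**Figure D5:**
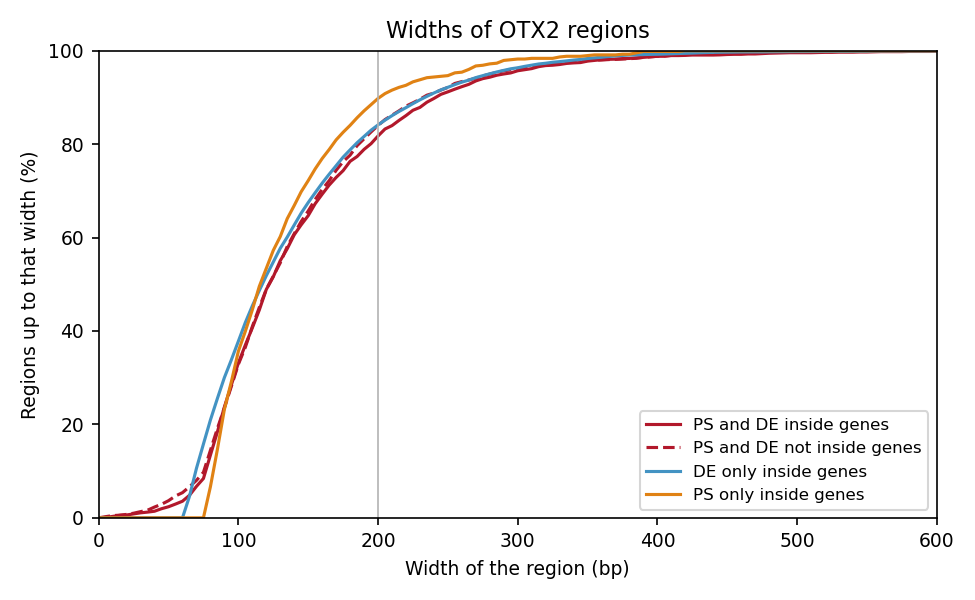
Share of regions up to a given width (y axis, percent; x axis, bp) for PS and DE regions inside genes (red), the other PS and DE regions (dashed), and DE only (blue) and PS only (orange) regions inside genes. At 200 bp (grey line) the PS only curve is highest, and only the PS and DE curves start below 62 bp.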

How the data were processed

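The authors deposited 4 region lists with the columns chromosome, start and end and no measured value (the deposited values are coordinates, with no counts, scores or signal). The submitters' processing notes name mm10, MACS2 2.2.6, Picard 2.26.10, Bowtie2 2.3.5.1, bedtools 2.30 and SAMtools 1.14. Not given in the sources used here are their settings, the use of IgG and how lists of several stages were made. Positions were written 1-based. Counts over genes leave out 2 DE only regions that lie on a scaffold with no chromosome. Genes were the 21887 protein-coding genes of a RefSeq table of GRCm38.p6, the assembly of mm10, and a midpoint in several spans went to the shortest (32 members). Strand and inner starts came from RefSeq promoter windows, which gave the strand of 17492 genes and cover no chromosome 18. No genome was used, so the planned motif search in 200 bp windows was replaced by the bases inside promoter windows.

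Members and the 16 gene lists (all 374 symbols matched) were chosen with earlier results of these data known. Genes named are the 12 with the most members (ties broken by members per kb, which parted 13 genes with 6), the 8 densest with at least 3, up to 4 per list, those of the 5 widest members and of the 5 tightest runs of 3; further list genes are named for their counts. Tests were 12 two-sided Fisher's exact tests in scipy 1.17.1 with Benjamini-Hochberg adjustment and a threshold of 0.05. Regions near one gene are not independent, so these p-values are too small. Wilson intervals (95%) cover counting error only. Classification was tested on simulated positions.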

Additional observations from a re-analysis of the deposited data

How the results depend on the processing

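Alternatives were a margin of 2.5 kb, the whole region inside the gene, regions of at least 100 bp, merging within 500 bp, other distances and widths, every overlapping gene span, and at least 2 members per gene. The ratio of members to PS only regions nearer the start was 1.01 and turned to 0.999 with the larger margin and with the whole region inside, and to 0.993 when merged, all close to 1. The inside share against EPI and PS rose to 1.19 times with the larger margin. The width ratio to DE only regions fell to 1.07 with regions of at least 100 bp (adjusted Fisher's exact p = 0.290) and when merged (adjusted Fisher's exact p = 0.191), and was 1.17 at 300 bp (adjusted Fisher's exact p = 0.261). That to the other PS and DE regions was 1.11 merged, 1.03 at 150 bp and 1.13 at 300 bp (adjusted Fisher's exact p from 0.152 to 0.478). With DE only regions within 50 kb, the ratios were 1.05 to the other PS and DE regions and 1.04 to PS only. The causes were not tested. Requiring 2 members left 508 genes. Of 96 counts of genes over the lists and settings, 80 stayed within 1.5 times and 16 did not, most of them when 2 members were required. In the other 55 cases the main results stayed on the same side of the threshold or within 1.5 times. No paired analysis was possible because the files hold no value per library; for the same reason leaving out each replicate was not run, and the planned motif windows were not run because they need a genome. Depth per library is unknown.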
